A study of Sus scrofa with 12 samples.

Results

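The intestinal epithelium is kept in its identity by a small set of transcription factors. CDX1 and CDX2 are homeobox factors that set intestinal fate along the gut, and HNF4A and HNF4G are nuclear receptors that drive the absorptive programme of enterocytes. GATA4 and GATA6 are zinc finger factors of the gut epithelium. GATA4 is known from mouse work to mark the duodenum and jejunum and to be lost towards the ileum, while GATA6 is found along the whole small intestine. KLF5 is a factor of dividing crypt cells, ELF3 is an ETS factor of differentiating epithelium, and CREB3L3 is a membrane-bound factor of liver and small intestine that controls genes of lipid transport. These 9 genes were chosen by name. Of the 9, 6 (GATA4, GATA6, CDX2, HNF4A, ELF3 and CREB3L3) were matched to a gene name in the table, through 9 assembled loci, among 16999 gene names in all. CDX1, HNF4G and KLF5 were not matched by gene name and were not analysed here.

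RNA-seq had been done on jejunum of 12 piglets, 3 in each of 4 groups. Sucking control piglets (W_Con) were 21 days old, and weaned control piglets (PW_Con) were 28 days old, 7 days after weaning, both from sows without resveratrol. Sucking resveratrol (W_Res) and weaned resveratrol (PW_Res) piglets had the same ages and came from sows fed 300 mg/kg resveratrol, a plant polyphenol, through gestation and lactation. The paper and the public records differ on the breed and on whether piglets were moved at weaning. The sources used here do not give the stretch of jejunum taken, and age and weaning cannot be told apart because every weaned piglet was 7 days older. Values are FPKM, in which fragments are scaled to exon length and to the mapped reads of a library, so the read depth behind a gene is unknown. The p-values measure the spread between these piglets. Per the paper, a male piglet was taken from each litter at each age, but the labels do not name litters. Litter was therefore not a term in the main fits. In bulk tissue, fewer cells of a type and less RNA per cell cannot be told apart.

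The libraries were checked against marker genes first. All 9 matched epithelial markers were above 0 in all 12 libraries, with a summed level of 2054 to 6315 FPKM. The summed level of 6 smooth muscle markers was 1520 FPKM in sucking resveratrol replicate 1 and 3357 FPKM in replicate 2, and 95.6 to 386 FPKM in the other 10 libraries. FABP6, the ileal bile acid binding protein, had 8055, 1231 and 9.10 FPKM in the sucking control libraries and 9621, 8791 and 6518 FPKM in the weaned control libraries. It had 128, 12.2 and 6146 FPKM in the sucking resveratrol libraries and 24110, 1.70 and 4.81 FPKM in the weaned resveratrol libraries. All 12 libraries are labelled jejunum, and a gene that marks the ileum was thus at 1231 FPKM or more in 7 of them and at 128 FPKM or less in 5. The weaned control group held high libraries only, and each of the other 3 groups held both kinds.

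GATA4 differed most between libraries among the 6 factors. It had 0.868, 5.19 and 23.8 FPKM in the sucking control libraries. The weaned control libraries had 1.69, 3.33 and 1.96 FPKM. The sucking resveratrol libraries had 9.65, 24.1 and 0.772 FPKM, and the weaned resveratrol libraries had 0.758, 20.3 and 19.1 FPKM. The highest library was thus 31.8-fold above the lowest, and the 3 groups other than weaned control each held a library under 1 FPKM and a library above 19. The group means were 9.94 ± 12.2 FPKM (SD, n = 3) in sucking control, 2.33 ± 0.878 in weaned control, 11.5 ± 11.8 in sucking resveratrol and 13.4 ± 11.0 in weaned resveratrol piglets. The SD was above the mean in both sucking groups.

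**Figure D1:**
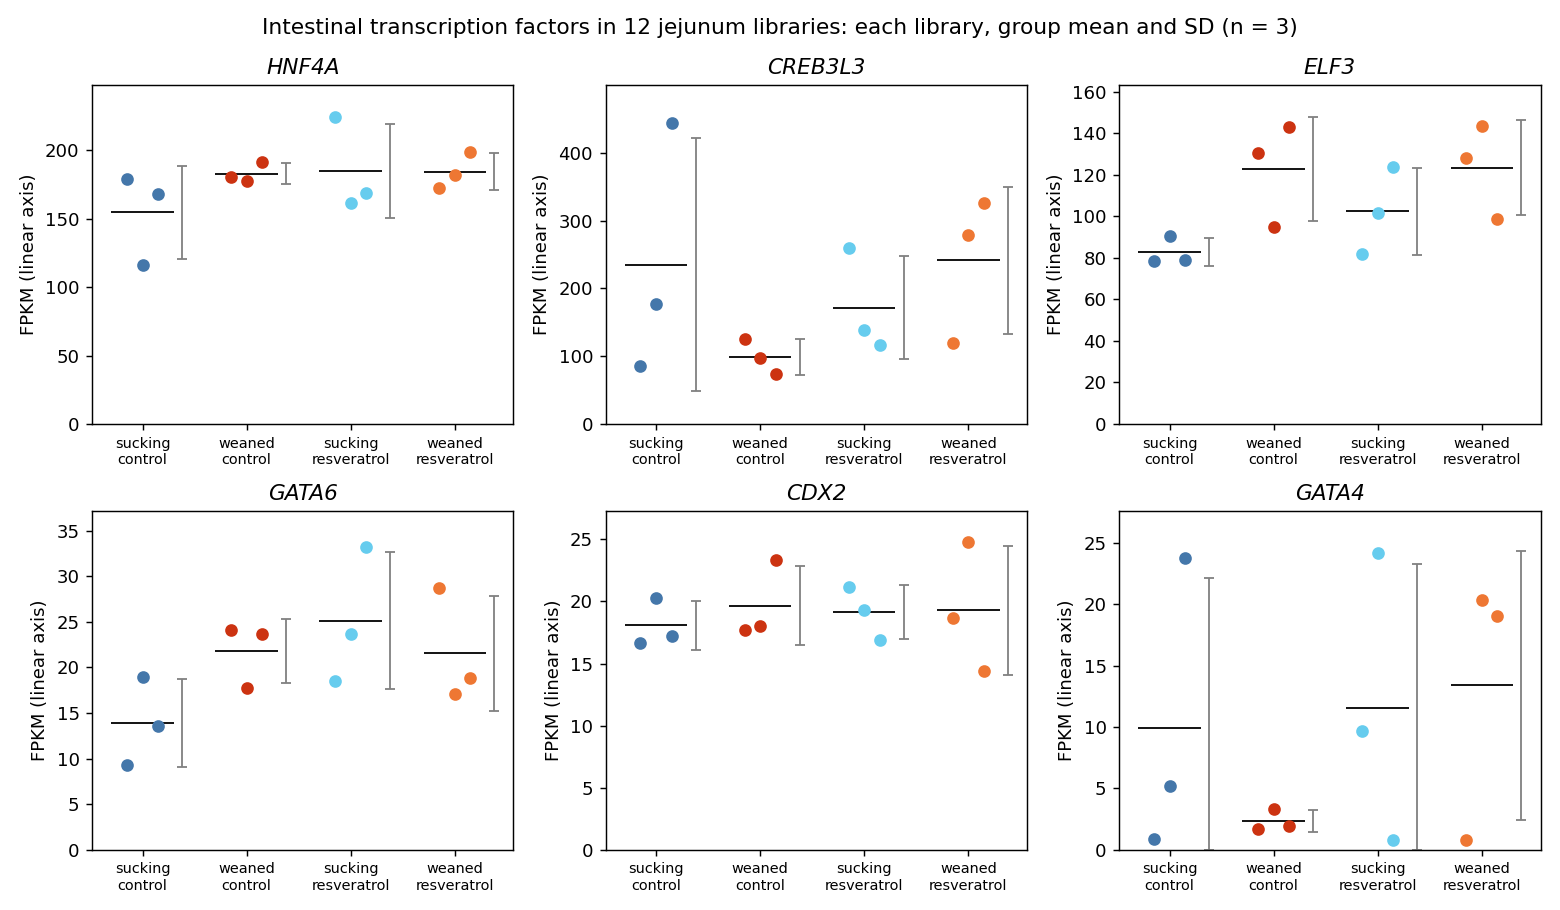
FPKM (linear axis, from 0) of the 6 transcription factors in each of the 12 libraries by group, where points are libraries, the line is the group mean and the bar is the SD (n = 3), cut at 0 for GATA4. GATA4 runs from 0.758 to 24.1 FPKM and splits within 3 of the groups, while HNF4A, ELF3 and CDX2 stay within a 2-fold range over the libraries.

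GATA6, the close relative of GATA4, did not share this pattern. It had 9.28, 18.9 and 13.6 FPKM in sucking control and 24.1, 17.7 and 23.7 FPKM in weaned control libraries. It had 18.5, 23.7 and 33.2 FPKM in sucking resveratrol and 28.7, 17.0 and 18.9 FPKM in weaned resveratrol libraries. The ratio of GATA4 to GATA6 in FPKM, a value per length, was 1.75, 1.02, 1.19 and 1.01 in the 4 libraries with the highest GATA4. These were sucking control replicate 3, sucking resveratrol replicate 2 and weaned resveratrol replicates 2 and 3. The ratio depends on GATA4 being a sum of 3 assembled loci, where GATA6 has 1. One GATA4 locus alone, MSTRG.11103, had 11.3, 13.3, 9.36 and 12.1 FPKM there, below GATA6 in each. In the other 8 libraries the ratio was 0.0232 to 0.522, and GATA6 was the higher gene in each.

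CDX2 was among the steadiest of the 6. Its libraries were at 16.7, 20.3 and 17.2 FPKM in sucking control, 17.7, 18.0 and 23.3 in weaned control, 21.2, 19.3 and 16.9 in sucking resveratrol, and 18.7, 24.8 and 14.4 in weaned resveratrol piglets. HNF4A had 179, 116 and 169 FPKM in sucking control, 180, 177 and 192 in weaned control, 224, 162 and 169 in sucking resveratrol, and 172, 182 and 199 in weaned resveratrol libraries. For both genes all 4 groups overlapped, and the lowest HNF4A library was sucking control replicate 2.

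ELF3 had 78.7, 90.6 and 79.0 FPKM in sucking control and 130, 94.8 and 143 FPKM in weaned control libraries, which did not overlap. It had 81.9, 102 and 124 FPKM in sucking resveratrol and 128, 143 and 98.6 FPKM in weaned resveratrol libraries, which did overlap. CREB3L3 had 85.5, 177 and 443 FPKM in sucking control and 126, 97.5 and 73.7 FPKM in weaned control libraries. It had 259, 139 and 117 FPKM in sucking resveratrol and 120, 278 and 325 FPKM in weaned resveratrol libraries. Within 3 of the 4 groups its highest library was more than 2-fold above the lowest.

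By mean FPKM over the 12 libraries the order was CREB3L3 (187), HNF4A (177), ELF3 (108), GATA6 (20.6), CDX2 (19.0) and GATA4 (9.29). HNF4A was above ELF3, and ELF3 above GATA6, in 12 of 12 libraries. CREB3L3 was above HNF4A in 5 of 12, GATA6 was above CDX2 in 6 of 12 and CDX2 was above GATA4 in 9 of 12, so that those neighbours were not separated beyond their spread. CREB3L3 and HNF4A stood at the 98.1 and 98.0 percentiles of mean FPKM among 12858 genes, and GATA4 at the 67.5 percentile. The spread within groups gave another order. The SD around the 4 group means of log2(FPKM + 1) was 1.71 for GATA4 and 0.79 for CREB3L3, at the 99.3 and 94.2 percentiles of all genes. It was 0.39 for GATA6, 0.26 for ELF3, 0.24 for CDX2 and 0.22 for HNF4A, where the median gene had 0.34.

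The GATA4 value is a sum of 3 loci that the assembly kept apart. The first, MSTRG.11103, had 0.717 to 13.3 FPKM and was above 0 in every library. The second, MSTRG.11104, had 12.4 FPKM in sucking control replicate 3, 9.79 in sucking resveratrol replicate 2, and 10.6 and 6.55 in weaned resveratrol replicates 2 and 3. It had 1.24 FPKM in sucking resveratrol replicate 1 and 0.400 FPKM or less in the other 7 libraries, where it was listed at 0 in 3. The third, MSTRG.11105, had at most 1.02 FPKM. The libraries with high GATA4 were therefore high in both of the main loci. CDX2 was a sum of 2 loci, and its second locus had 3.01 FPKM at most.

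**Figure D2:**
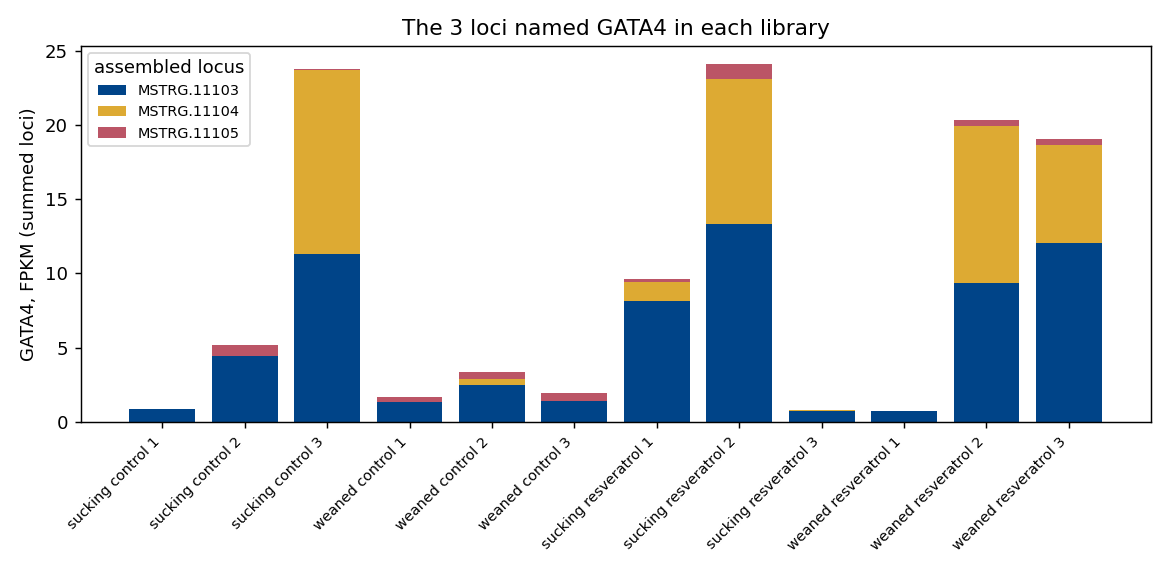
FPKM of the 3 assembled loci named GATA4, stacked from 0 for each of the 12 libraries. The second locus reaches 6.55 to 12.4 FPKM in the 4 libraries with the highest sum and 1.24 FPKM or less in the other 8.

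GATA4 and FABP6 ran in opposite order over the libraries. The 6 libraries with the lowest GATA4, 0.758 to 3.33 FPKM, were the 6 with FABP6 at 6146 FPKM or more. Sucking control replicate 2 (GATA4 5.19, FABP6 1231) and sucking resveratrol replicate 1 (GATA4 9.65, FABP6 128) lay between. The 4 libraries with GATA4 at 19.1 FPKM or more had FABP6 at 12.2 FPKM or less. SLC10A2, the ileal bile acid transporter, was at 1.67 to 6.69 FPKM in those 4 libraries and at 11.7 to 65.9 FPKM in the other 8. Among further markers of the distal small intestine, OSR2 and GUCA2B split the libraries in the same way. SLC51A, FGF19, CUBN, PYY and NR1H4 did not, and overlapped between the 4 and the other 8. CUBN, for example, was at 6.60 FPKM in weaned resveratrol replicate 2 and at 1.96 and 1.69 FPKM in weaned control replicates 1 and 3.

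**Figure D3:**
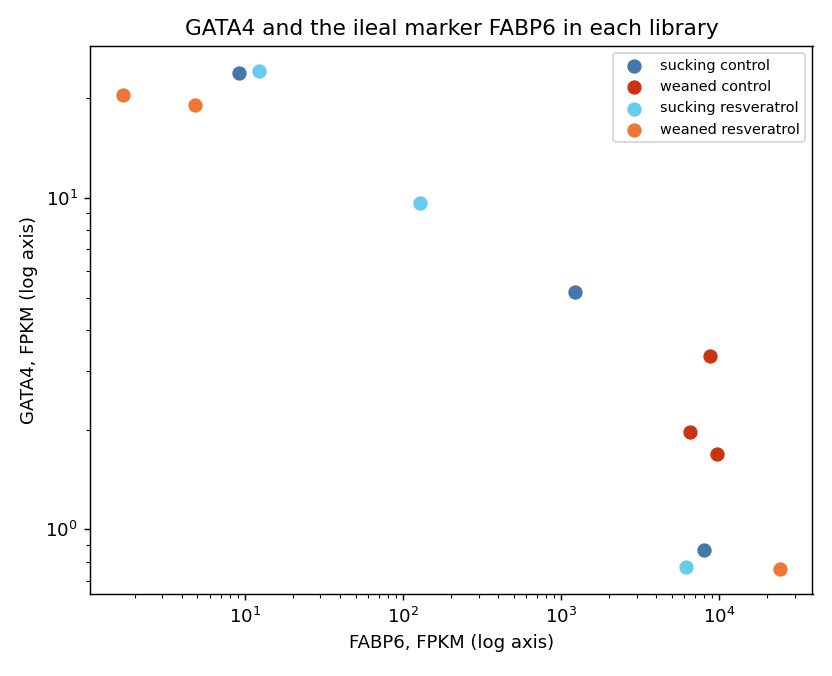
GATA4 against the ileal marker FABP6, both in FPKM on log axes, 1 point for each of the 12 libraries and coloured by group. Libraries of 3 groups lie at both ends of the diagonal, and the 3 weaned control libraries lie at the end with FABP6 at 6518 FPKM or more.

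A position score was set for each library, the mean log2(FPKM + 1) of 9 distal small intestine markers minus that of 7 proximal ones. It ran from -4.36 in sucking control replicate 3 to 1.36 in weaned resveratrol replicate 1. The distal mean ran from 2.48 to 6.92 and the proximal mean from 4.53 to 6.84. PDX1, SLC40A1 and FABP1 were highest in the library with the lowest score, but not every proximal marker fell as the score rose. CYBRD1 was highest, at 74.2 FPKM in both, in sucking resveratrol replicate 3 (score 0.55) and weaned resveratrol replicate 1. DGAT1 was highest, at 209 FPKM, in weaned resveratrol replicate 1. Neither list holds one of the 6 factors, but whether GATA4 itself acts on genes of the score was not tested. GATA4 fell with the score over the 12 libraries, with a Pearson r of -0.94 (permutation p = 1e-05, the smallest that the permutations can give, adjusted p = 0.0214 over all 12858 genes) and a Spearman rho of -0.87 (permutation p = 0.00046). Of all genes, 0.163% had an adjusted p under 0.05 in this relation. The r was -0.92 without the 2 libraries farthest from the median score, sucking control replicate 3 and sucking resveratrol replicate 2. The relation was also found within each age and each diet. Pearson's r was -0.95 at 21 days (exact permutation p = 0.00972, n = 6), -0.95 at 28 days (exact permutation p = 0.0292, n = 6), -0.91 in control litters (exact permutation p = 0.0444, n = 6) and -0.97 in resveratrol litters (exact permutation p = 0.00694, n = 6).

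CREB3L3 also fell with the score, and the difference of its r from that of GATA4 was not tested. Its r was -0.84 (permutation p = 0.00117), which did not pass the correction over all genes (adjusted p = 0.142), and its rho was -0.80 (permutation p = 0.00257). Without the 2 farthest libraries the r was -0.91. It was -0.74 at 21 days (exact permutation p = 0.0972, n = 6), -0.93 at 28 days (exact permutation p = 0.0264, n = 6), -0.96 in control litters (exact permutation p = 0.0111, n = 6) and -0.65 in resveratrol litters (exact permutation p = 0.183, n = 6). One proximal marker, APOA4, is itself a known target of CREB3L3. The other 4 factors had an r of -0.02 (HNF4A), 0.10 (CDX2), 0.30 (GATA6) and 0.37 (ELF3), with adjusted p of 0.902 or more, and their direction was not stable for HNF4A and CDX2.

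**Figure D4:**
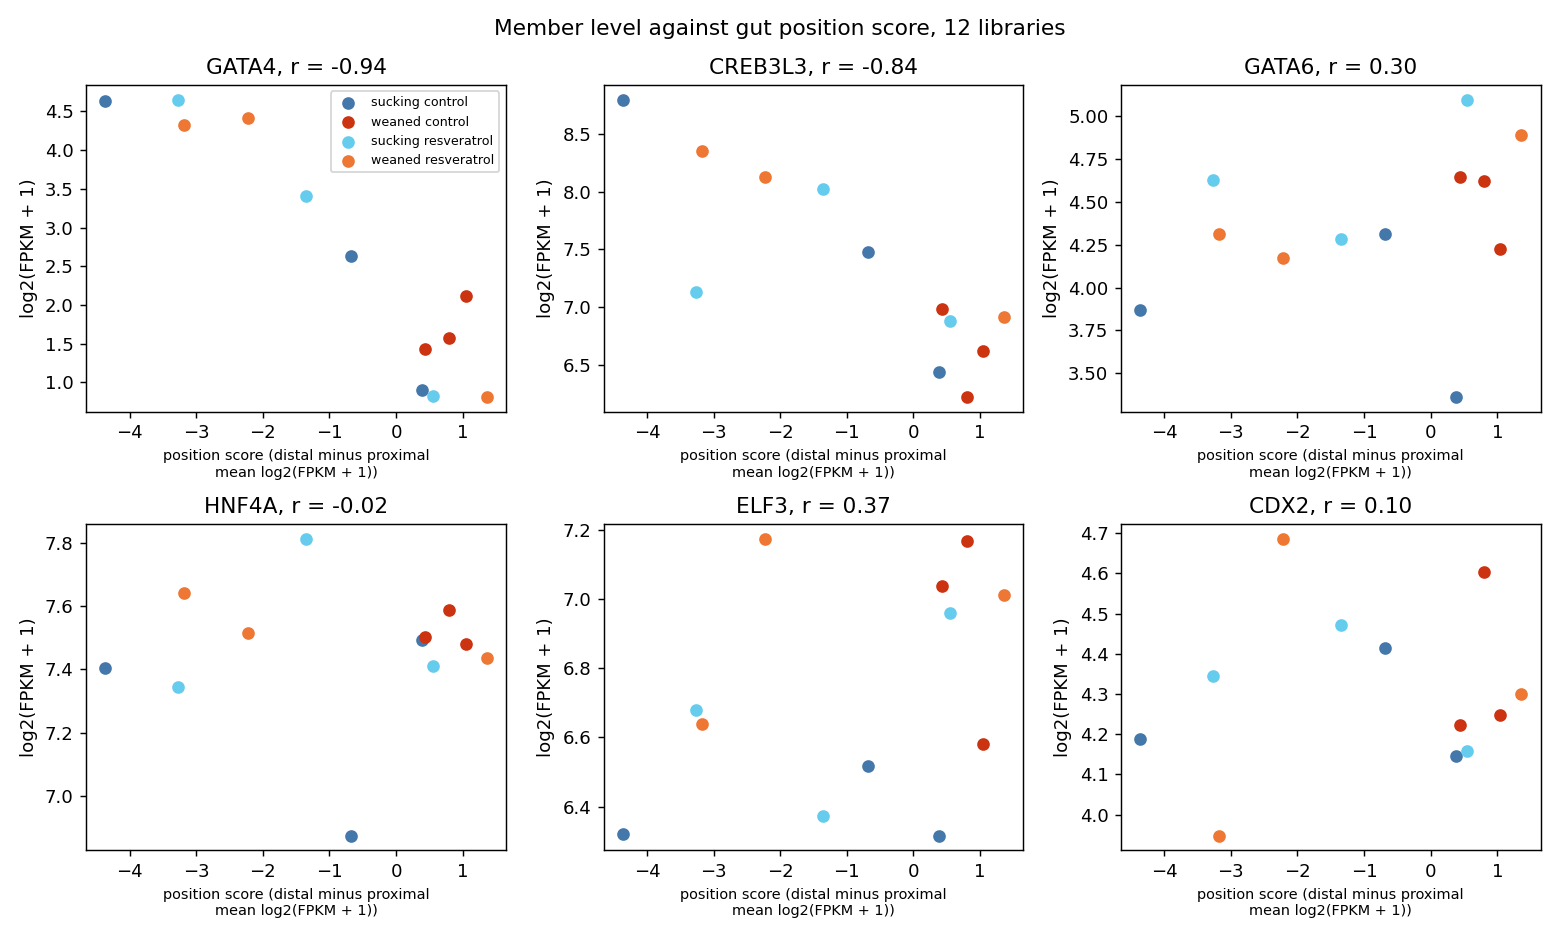
Level of each factor, as log2(FPKM + 1), against the position score (distal minus proximal marker mean, log2 units) in the 12 libraries, coloured by group, with Pearson's r over each panel. GATA4 declines along the score (r = -0.94), and in each of the 3 groups that span it the library with the highest score has the lowest GATA4, CREB3L3 declines with more scatter (r = -0.84), and the other 4 show no such slope.

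In all, 30 such relations of the 6 factors were computed, of which 24 were added after the data were seen. With the distal markers alone GATA4 had an r of -0.96 (permutation p = 2e-05, adjusted p = 0.0161) and CREB3L3 an r of -0.76 (adjusted p = 0.266). With the proximal markers alone GATA4 had an r of 0.61 (adjusted p = 0.488) and CREB3L3 an r of 0.80 (permutation p = 0.00088, adjusted p = 0.209). Sucking control replicate 3 and weaned control replicate 3 were the 2 libraries farthest from the median proximal level. Without them the r was 0.52 for GATA4 (permutation p = 0.122) and 0.57 for CREB3L3 (permutation p = 0.0855). Both kept their direction, from fewer libraries. The shares of all genes with an adjusted p under 0.05 were 0.21% for the distal and 0% for the proximal level. None of the 6 factors passed with the smooth muscle marker level, where 5.62% of all genes did (adjusted p of 0.624 or more), or with the epithelial marker level, where 0.0467% did (adjusted p of 0.52 or more). The r of GATA4 with the smooth muscle level was 0.07 over 12 libraries and -0.76 without sucking resveratrol replicates 1 and 2, so it rests on those libraries, and for CREB3L3 it was -0.27 and -0.80.

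The genes most like each factor were found among 6290 genes by Pearson's r of log2(FPKM + 1) over the 12 libraries, which share the spread described above. For GATA4 they were EPHX1 (r = 0.94), a microsomal epoxide hydrolase, DHRS4 (0.93), a short-chain reductase, ENSSSCG00000016309 (0.92), GFRA3 (0.91), a receptor of the GDNF family, and MROH2A (0.91). EPHX1 ran from 5.34 to 238 FPKM, and ENSSSCG00000016309 from 0 to 370.3 FPKM. For CREB3L3 they were SEC13 (0.97), a coat protein of transport from the endoplasmic reticulum, then ENSSSCG00000016312 (0.92), ENSSSCG00000003011 (0.92), ENSSSCG00000026000 (0.91) and PEX11A (0.91), a peroxisome division factor. For HNF4A they were ERP29 (0.92), TIMM13 (0.91), ALG2 (0.90), CACYBP (0.87) and NUP35 (0.85). For CDX2 they were RTFDC1 (0.88), DUS2 (0.88), SNRNP25 (0.87), OSGEP (0.87) and POLR1C (0.86).

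Weaning was compared first in the control litters, the question of the published work. The thresholds of the study, a log2 change of more than 1 in either direction with a P under 0.05 before adjustment, were applied here to limma on log2(FPKM + 1) and are called the standard. None of the 6 factors met it, and 3.34% of the 12583 genes tested did. The log2 fold change of ELF3 was 0.54 (standard error 0.20, unadjusted P = 0.0264, adjusted p = 0.225 from limma), and GATA6 of 0.65 (standard error 0.27, unadjusted P = 0.0435, adjusted p = 0.268 from limma). These 2 of 6 had an unadjusted P under 0.05, against 17.8% of all genes. Neither did without sucking control replicate 1 or 3 or weaned control replicate 1 or 3 (0.065 to 0.0759 for ELF3 and 0.08 to 0.134 for GATA6 in limma), with the position score as a covariate (0.0937 and 0.146) or with a replicate block (0.0506 and 0.0732), and GATA6 did not after median-of-ratios rescaling (0.0507). Of all genes, 0% had an adjusted p under 0.05 in limma. ELF3 was the 1 factor of 6 whose groups did not overlap, against 25.4% of all genes. The summed level of the 9 other epithelial markers also did not overlap, at 3631 to 3759 FPKM in sucking and 4227 to 5103 FPKM in weaned control libraries. Of these 9 markers 4 were higher and 5 lower, with a median log2 fold change of -0.03. The keratins KRT19 (1.29) and KRT8 (0.86) were the 2 with an unadjusted P under 0.05 in limma, while VIL1 (-0.16), KRT20 (-0.20) and CDH17 (-0.25) were not past it. The part of the epithelial level in the ELF3 value was not tested.

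The interval for GATA4 in control litters was wide, with a log2 fold change of -1.02 (95% interval -2.97 to 0.93, adjusted p = 0.57 from limma). It was -1.93 (unadjusted P = 0.0151 from limma) without sucking control replicate 1, which would meet the standard, and -0.06 without replicate 3. CREB3L3 had -0.96 (95% interval -2.25 to 0.33, adjusted p = 0.411 from limma), and -1.52 without sucking control replicate 1, again past the standard, against -0.34 without replicate 3. The position score of the sucking control libraries was 0.39, -0.68 and -4.36, and that of the weaned control libraries 0.44, 1.04 and 0.80. With the score as a covariate over all 12 libraries GATA4 changed sign, to 0.87 (unadjusted P = 0.08 from limma), and CREB3L3 was at -0.22 (unadjusted P = 0.602 from limma). CDX2 (0.11) and HNF4A (0.27) had intervals that reached no farther from 0 than 0.74 (HNF4A), and HNF4A ran from 0.074 without sucking control replicate 2 to 0.38 without replicate 1.

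In the resveratrol litters no factor had an unadjusted P under 0.05, which 13.3% of the 12984 genes tested had. The log2 fold changes from sucking to weaned piglets were 0.22 for GATA4 (95% interval -2.58 to 3.03), 0.45 for CREB3L3 (-0.62 to 1.52), 0.27 for ELF3 (-0.33 to 0.87), -0.21 for GATA6 (-0.89 to 0.48), -0.01 for CDX2 (-0.58 to 0.55) and 0.01 for HNF4A (-0.53 to 0.55). The standard was met by 4.75% of all genes, an adjusted p under 0.05 by 0.0077%, and groups without overlap were found for 21.8% of all genes and 0 of the 6 factors. GATA4 ran from -0.85 without sucking resveratrol replicate 3 to 1.41 without weaned resveratrol replicate 1. CREB3L3 ran from 0.18 without weaned resveratrol replicate 3 to 0.89 without replicate 1 of that group (unadjusted P = 0.0545 from limma), and ELF3 from 0.12 without sucking resveratrol replicate 1 to 0.42 without weaned resveratrol replicate 3. With the smooth muscle level as a covariate CREB3L3 changed sign, to -0.25. Median-of-ratios rescaling moved the median of all genes in this comparison by 0.17. With it GATA4 was at 0.41, ELF3 at 0.49, HNF4A at 0.22, CDX2 at 0.19 and GATA6 at -0.0016, with no unadjusted P under 0.05 in limma.

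Over both diets together, 6 weaned against 6 sucking libraries, ELF3 had a log2 fold change of 0.41 (95% interval 0.06 to 0.75, unadjusted P = 0.0241, adjusted p = 0.24 from limma). It did not meet the standard, which 1.35% of the 12858 genes tested met. An unadjusted P under 0.05 was found for this 1 of 6 factors and for 16.9% of all genes. ELF3 lost it without any one of sucking control replicate 1, sucking resveratrol replicate 1, weaned control replicates 1 and 3 and weaned resveratrol replicate 2 (0.052 to 0.0588 in limma), and with the position score (0.0532) or the smooth muscle level (0.0684) as a covariate. There was an adjusted p under 0.05 for 0.0622% of all genes. The other 5 had values from -0.40 (GATA4) to 0.22 (GATA6), with adjusted p of 0.646 or more from limma. In the same comparison 8 of 9 epithelial markers were higher (median 0.34), and KRT19 and KRT8 rose at the standard. All 6 smooth muscle markers (median -0.90) and all 6 stroma and vessel markers (median -0.77) were lower. Of 9 distal markers 8 were higher (median 0.60), and of 7 proximal markers 5 were lower (median -0.38). The part of these markers in the ELF3 value was not tested.

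Maternal resveratrol was then compared with control litters at each age. These comparisons share their control libraries with those of weaning. In sucking piglets the log2 fold change of GATA6 was 0.82 (standard error 0.32, 95% interval 0.09 to 1.56, unadjusted P = 0.0331, adjusted p = 0.36 from limma) and did not meet the standard. Its mean was 13.9 ± 4.82 FPKM (SD, n = 3) in control and 25.1 ± 7.48 FPKM (SD, n = 3) in resveratrol litters, and the groups overlapped at 18.9 and 18.5 FPKM. The value passed 1 and so met the standard without sucking control replicate 2 (1.05) or sucking resveratrol replicate 1 (1.01). Without any one of the other 4 libraries the unadjusted P of limma was above 0.05, at 0.118 and 0.0668 without sucking control replicates 1 and 3 (0.58 and 0.83) and at 0.064 and 0.101 without sucking resveratrol replicates 2 and 3 (0.84 and 0.61). It was 0.0736 after median-of-ratios rescaling. Smooth muscle markers stood high in 2 of these resveratrol libraries, as given above, and GATA6 was at 0.98 with their level as a covariate, a covariate added once the data had been seen. No other factor had an unadjusted P under 0.05, against 13.3% of the 13153 genes tested. The standard was met by 4.49% of all genes, 21% did not overlap and 0% had an adjusted p under 0.05.

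In weaned piglets CREB3L3 was the 1 factor of 6 that met the standard, which 1.8% of the 12350 genes tested met. It rose from 98.9 ± 25.9 FPKM (SD, n = 3) in control to 241 ± 108 FPKM (SD, n = 3) in resveratrol litters, a log2 fold change of 1.19 (standard error 0.40, 95% interval 0.24 to 2.14, unadjusted P = 0.0209, adjusted p = 0.417 from limma). The lowest resveratrol library, at 120 FPKM, lay below the highest control library, at 126 FPKM. The call was lost without weaned control replicate 2 (1.19, unadjusted P = 0.0509 from limma), weaned control replicate 3 (0.99), weaned resveratrol replicate 2 (1.02) or weaned resveratrol replicate 3 (0.91). All 12 libraries in 1 fit (unadjusted P = 0.0554 from limma) or the smooth muscle level as a covariate (1.07, unadjusted P = 0.0789 from limma) ended it too. The position score of the resveratrol libraries was 1.36, -2.22 and -3.18, and the library with 1.36 was the one with CREB3L3 at 120 FPKM. With the score as a covariate the log2 fold change was 0.51 (unadjusted P = 0.227 from limma).

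GATA4 had a log2 fold change of 1.48 in the same comparison (95% interval -0.65 to 3.62, adjusted p = 0.594 from limma). It was 2.67 (unadjusted P = 3.29e-05 from limma) without weaned resveratrol replicate 1, past the standard, and -0.24 with the position score as a covariate. The other 4 factors lay between -0.05 (CDX2) and 0.01 (ELF3), and no bound of their intervals was farther from 0 than that of GATA6 at -0.60. An unadjusted P under 0.05 was found for 10.2% of all genes, an adjusted p under 0.05 for 0.0081%, and groups without overlap for 17.3%, against none of the 6 factors.

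**Figure D5:**
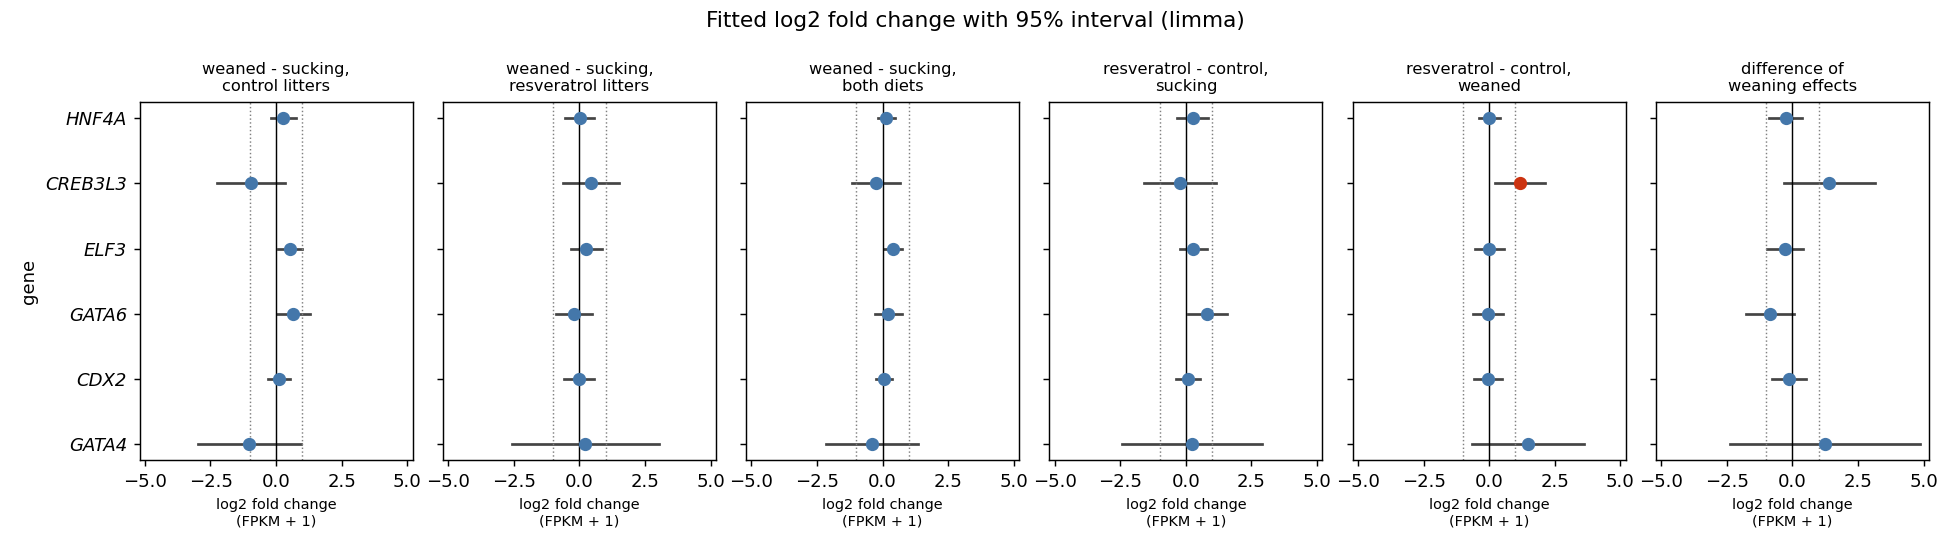
Fitted log2 fold change of FPKM + 1 with its 95% interval from limma for the 6 factors in 6 comparisons, with dotted lines at -1 and 1. The 1 red point is CREB3L3 in weaned piglets (1.19), which met the standard of the study, and the intervals of GATA4 are the widest in all 6 panels.

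The difference between the weaning effects in the resveratrol and in the control litters was tested directly. CREB3L3 had a difference of 1.41 (95% interval -0.31 to 3.14, unadjusted P = 0.0996, adjusted p = 0.441 from limma), GATA6 of -0.86 (95% interval -1.77 to 0.05, unadjusted P = 0.0614, adjusted p = 0.386 from limma) and GATA4 of 1.24 (95% interval -2.39 to 4.87, adjusted p = 0.765 from limma). CDX2, HNF4A and ELF3 were at -0.12, -0.26 and -0.27. The GATA4 difference ran from 0.17 without sucking resveratrol replicate 3 to 2.43 without weaned resveratrol replicate 1. No factor had an unadjusted P under 0.05, which 13.8% of the 12858 genes had, while 7.77% met the standard and 0% had an adjusted p under 0.05. CREB3L3 met the standard without sucking control replicate 1 (1.98) or weaned resveratrol replicate 1 (1.85), and was at 0.80 without sucking control replicate 3, 0.67 with the position score as a covariate and 0.57 with the smooth muscle level as one. GATA6 met it without sucking control replicate 2 (-1.09), sucking resveratrol replicate 1 (-1.05) or weaned resveratrol replicate 1 (-1.08).

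Further genes of the pathway were taken from lists chosen with earlier results of these data known. The lists share genes, so their counts are not separate observations. For example, FABP1 and APOA4 are both enterocyte genes and proximal markers, and APOA1, APOA4 and APOC3 are both enterocyte genes and CREB3L3 targets. Their counts are read beside the shares of all genes in control litters, 3.34% past the standard and 17.8% with an unadjusted P under 0.05. Of 24 other intestinal transcription factors tested in control litters, 12 were higher and 12 lower after weaning, with 0 past the standard in limma and 4 with an unadjusted P under 0.05, a share near that of all genes. The list had a median log2 fold change of 0.00, against -0.02 for all genes. Of 16 enterocyte genes known as targets of HNF4 or CDX2, 3 were higher and 13 lower, with a median of -0.85, although HNF4A and CDX2 themselves were at 0.27 and 0.11. FABP1 (-2.11) and FABP2 (-2.20), fatty acid carriers, APOB (-1.23), the core protein of chylomicrons, and MTTP (-1.86), which loads lipid on it, fell at the standard, 4 of the 16, with adjusted p of 0.118 to 0.189 from limma. The level of APOB was low throughout, at 0.363 to 6.85 FPKM over all libraries, against 40.5 to 371 FPKM for MTTP. Of 9 target genes of CREB3L3, 1 was higher and 8 lower, with a median of -0.57, 0 past the standard in limma and 1 with an unadjusted P under 0.05. APOA1, its apolipoprotein target, was at -1.74 (adjusted p = 0.288 from limma).

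Markers of position had these values in the same comparison, where no adjusted p of limma was under 0.05. Of 7 proximal markers 6 were lower after weaning in control litters, and 3, FABP1, the iron exporter SLC40A1 (-1.92) and the enteropeptidase gene TMPRSS15 (-1.14) fell at the standard. TMPRSS15 was low as well, at 0.444 to 9.19 FPKM over all libraries. Of 9 distal markers 8 were higher, with a median of 1.04, and 1, SLC51A (1.26), a basolateral bile acid transporter, rose at the standard. FABP6 was at 4.14 (95% interval -0.89 to 9.17, adjusted p = 0.363 from limma). Their part in the values of the target genes was not tested. Medians for other cell types in control litters were 0.43 for smooth muscle, 0.20 for lymphocyte, -0.25 for stroma and vessel, 0.13 for crypt and -0.03 for epithelial markers. Of 10 lymphocyte markers 4 had an unadjusted P under 0.05 in limma, and CCR7 (1.49) and the B cell gene CD79B (2.05) rose at the standard, while PDGFRA (-1.55), of the stroma and vessel list, fell at it. Weaned control replicate 2 stood apart in the lymphocyte markers, with a mean log2(FPKM + 1) of 4.66 against 3.03 and 3.05 in the other weaned control libraries. The part of these cell types in the values above was not tested.

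In the resveratrol litters, where 4.75% of all genes met the standard and 13.3% had an unadjusted P under 0.05, the 16 enterocyte genes had 10 higher and 6 lower, with a median of 0.02 against -0.16 for all genes, 0 past the standard in limma and 1 with an unadjusted P under 0.05. Of 24 other transcription factors, PPARG (1.62), a lipid-sensing nuclear receptor, rose and ISX (-1.01), a homeobox factor of vitamin A uptake, fell, and the median was -0.18. Of 10 CREB3L3 targets 3 were higher and 7 lower, and APOC2 (-1.05) fell. The 6 smooth muscle markers were all lower, with a median of -2.32, and 5 met the standard. All 6 stroma and vessel markers were lower as well, 4 of them at the standard, with a median of -1.20. Of 9 epithelial markers 8 were higher, with a median of 0.85, and KRT19 (1.15) and KRT8 (1.22) rose at the standard. Over both diets, where 1.35% of all genes met the standard, 2 of the 16 enterocyte genes were higher and 14 lower. Their median was -0.43 against -0.10 for all genes, and APOA1, APOC3 and FABP2 fell at the standard. Of 10 CREB3L3 targets 1 was higher and 9 lower over both diets, with a median of -0.38. APOA1 and APOC3 are also on this list, and 0 of either list had an adjusted p under 0.05 in limma. The part of these cell types in the values above was not tested.

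With maternal resveratrol in sucking piglets, where 4.49% of all genes met the standard and 13.3% had an unadjusted P under 0.05, 15 of the 16 enterocyte genes were lower (median -0.60 against 0.09 for all genes), and APOB (-1.29) and MTTP (-1.33) fell at the standard. Of 10 CREB3L3 targets 3 were higher and 7 lower, with a median of -0.11, and APOC2 (1.28), the cofactor of lipoprotein lipase, rose at the standard, the 1 of 10 with an unadjusted P under 0.05. Of 7 proximal markers 5 were lower, with a median of -0.41, and TMPRSS15 (-1.46) fell at the standard, while 4 of 9 distal markers were higher and 5 lower, with a median of -0.04. Of 24 other transcription factors 0 met the standard in limma and 2 had an unadjusted P under 0.05. All 6 smooth muscle markers were higher, 5 of them at the standard, with a median of 2.45. Of 6 stroma and vessel markers 5 were higher, with a median of 0.65, 0 past the standard in limma and 1 with an unadjusted P under 0.05. Of 8 lymphocyte markers 6 were lower, with a median of -0.72, and CD2, CD3D and CD3E fell at the standard. Of 9 epithelial markers 7 were lower, 3 of the 9 with an unadjusted P under 0.05 in limma and 0 past the standard. The part of position and of these cell types in the values above was not tested. In weaned piglets, where the shares were 1.8% and 10.2%, 10 of 16 enterocyte genes were higher, and 0 met the standard or had an unadjusted P under 0.05 in limma. There, 8 of 9 CREB3L3 targets were higher with a median of 0.48 against -0.07 for all genes, 0 past the standard in limma and 1 with an unadjusted P under 0.05. APOA1 was at 1.03 (adjusted p = 0.668 from limma) and APOA4 at -0.02. In the same comparison 7 of 9 epithelial markers were higher (median 0.22) and all 6 smooth muscle markers lower (median -0.43), with 0 of either list at the standard. The crypt marker TOP2A fell at the standard. Of 7 proximal markers 6 were higher (median 0.78), with CYBRD1 at the standard, and 7 of 9 distal markers were lower (median -0.50). All 10 lymphocyte markers were lower (median -0.99, with 1, CCR7, at the standard). Weaned control replicate 2 stood apart in them, as given above, and the weaned resveratrol libraries had a mean log2(FPKM + 1) of 2.32 to 2.92 over the list. The part of these markers in the values of the targets was not tested. Of 23 other transcription factors PPARG (1.42) rose, and ISX (-1.07) and the bile acid receptor NR1H4 (-1.63), which is also one of the distal markers, fell at the standard.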

How the data were processed

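Jejunum RNA of 12 piglets had been sequenced as 150-bp paired-end reads. The table that the authors deposited holds FPKM for 41264 loci, estimated per the paper with StringTie and Ballgown after alignment with TopHat. The submitters' processing notes name HISAT2 2.0, Bowtie 0.12.2, StringTie 1.3.0 and the builds Sscrofa10.2 and mm8, without roles. No counts were used, so depth per gene is unknown, and the sources name no further scaling of the libraries. The 17650 loci without a gene name (42.8%, with 5.48% to 8.47% of a library's FPKM) were left out. Of 8154 loci named by an Ensembl identifier, 2967 were matched to a symbol. Loci were summed by gene name. Sequences and coordinates were not used here.

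The log2(FPKM + 1) values of genes with a mean of at least 0.5 FPKM were tested with limma 3.58.1 in R 4.3.3 (lmFit, eBayes with trend), with Benjamini-Hochberg adjustment over all genes tested. A fold change on this scale understates that of low genes. Each comparison of 2 groups used its own 6 libraries; weaning over both diets (with a diet term) and the difference of weaning effects used all 12. Relations used 100000 permutations, or all pairings for 6 libraries (Python 3.11.15, numpy 2.4.6, pandas 2.3.3). On simulated data for weaning in control litters, 95.5% of 200 genes changed by a log2 fold change of 2 were recovered, among 12580 genes, and 5.4% of the others had an unadjusted P under 0.05. The 200 genes were drawn from those with a mean of at least 5 FPKM, and the noise was drawn independently for each gene. Spread shared between genes was not simulated, so the share recovered does not give the power for the 6 factors. Named were the 6 factors, list genes that met the standard or define the tissue, and the 5 genes of at least 5 FPKM most like each of 4 factors. Values of APOA1, APOA4 and FABP6 that did not meet the standard are given as those of known targets or tissue markers. The factors and lists were chosen with earlier results of these data known. The alternatives were another pseudocount, filter, scaling, variance model, locus choice or library set, a replicate block, a marker covariate and leaving out each library.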

Additional observations from a re-analysis of the deposited data

Results flagged for a closer look

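Among 64 genes tested from the factors and the lists of other transcription factors, targets and position markers, 7 (10.9%, against 7.77% of all genes) differed in their weaning effect between the resveratrol and control litters at an unadjusted P under 0.05 and a difference past 1 in limma, and none of the 7 had an adjusted p under 0.05 (0.252 to 0.340). PPARG had a difference of 1.63 (adjusted p = 0.287 from limma), with -0.02 in control and 1.62 in resveratrol litters. HES1, a Notch target that represses the secretory fate, had a difference of -1.01 (adjusted p = 0.277 from limma), with 0.76 in control and -0.24 in resveratrol litters. The enterocyte lipid genes FABP1, APOB and MTTP had differences of 2.30, 1.48 and 2.02, and their log2 fold changes were -2.11, -1.23 and -1.86 in control and 0.19, 0.25 and 0.16 in resveratrol litters. CIDEC, a lipid droplet gene and CREB3L3 target, had a difference of 1.35 (adjusted p = 0.275 from limma). TMPRSS15, a proximal marker, had a difference of 2.51 (adjusted p = 0.268 from limma), with -1.14 in control and 1.37 in resveratrol litters. In the same contrast all 7 proximal markers, among them FABP1 and TMPRSS15, had a difference above 0. Of 9 distal markers 7 had one below 0, and all 6 smooth muscle markers had one below -1 at the standard. Of the other marker lists, KRT20 (epithelial), CD79B (lymphocyte) and VIM (stroma and vessel) also met the standard. The part of position and of muscle in these values was not tested.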

How the results depend on the processing

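Depth is not known from FPKM, and with 3 piglets a group the intervals above are wide. Under all 15 settings tried, the r with the position score stayed between -0.96 and -0.90 for GATA4 and between -0.94 and -0.76 for CREB3L3, with an unadjusted permutation p of at most 0.00786. The labels do not name litters, so whether replicate numbers pair littermates is unknown. The deviations of same-numbered libraries had a correlation over 0.1 in 5 of 18 pairs of libraries from different groups (-0.26 to 0.30). Most of these pairs cross maternal diets and cannot be littermates. Within a diet the correlations were -0.064, 0.090 and -0.011 in control and -0.26, 0.11 and -0.23 in resveratrol litters. Each library correlated best with its own number in 12 of 36 cases. Such correlations over all genes can neither show nor exclude shared litters. With the replicate block the genes past the standard numbered 445, 632, 182, 629, 256 and 1058, against 420, 617, 173, 591, 222 and 999 without it, in the order weaning in control litters, weaning in resveratrol litters, weaning over both diets, resveratrol in sucking and in weaned piglets, and the difference of weaning effects. The block changed no call of a factor at the standard, but in control litters it left 0 of 6 factors with an unadjusted P under 0.05 (0.0506 for ELF3 and 0.0732 for GATA6 from limma) in place of 2. CREB3L3 in weaned piglets stayed past the standard (unadjusted P = 0.043 from limma). In the same order a minimum of 5 FPKM gave 227, 246, 115, 250, 122 and 364 genes, where fewer genes were tested. A pseudocount of 0.1 gave 856, 1161, 537, 1006 and 484 in the first 5. The position covariate gave 267 genes for weaning over both diets, and the smooth muscle covariate, chosen after seeing the data, 526 for the difference. With 1 library left out the counts were 387 to 1047 in resveratrol litters (without sucking resveratrol replicates 2 and 1; 927 without 3), 391 to 943 for resveratrol in sucking piglets (without the same group's replicates 2 and 3; 893 without 1), 219 to 423 in weaned piglets (423 without weaned resveratrol replicate 1) and 633 to 1364 for the difference (633 without sucking control replicate 3). Of the log2 fold changes of the 6 factors, 20 changed sign under the other alternatives and 32 with 1 library left out, and the cause was not tested. With the position covariate GATA4 was at 0.87 for weaning in control litters, 0.55 over both diets, -0.24 for resveratrol in weaned piglets and -0.64 for the difference. With it CREB3L3 was at 0.12 over both diets and 0.51 for resveratrol in weaned piglets, where GATA6 was at 0.087 and HNF4A at -0.032. CREB3L3 in weaned piglets also lost its call with all 12 libraries in 1 fit (1.19, unadjusted P = 0.0554 from limma) and with the smooth muscle covariate (1.07). With that covariate weaning in resveratrol litters gave CDX2 0.22, HNF4A -0.13 and CREB3L3 -0.25, resveratrol in sucking piglets gave CDX2 -0.17 and CREB3L3 0.50, resveratrol in weaned piglets gave HNF4A -0.014, and the difference gave CDX2 0.16. Median-of-ratios rescaling moved the median of all genes by 0.17 in resveratrol litters and 0.16 for the difference. It gave CDX2 0.19 in resveratrol litters, -0.017 in sucking and 0.051 in weaned piglets with resveratrol, 0.069 for the difference and an r of -0.0016 with position, and GATA6 0.060 for resveratrol in weaned piglets. The locus with the highest mean gave CDX2 -0.014 for weaning over both diets. Without the 2 farthest libraries the r was 0.14 for GATA6, 0.52 for GATA4 and 0.57 for CREB3L3 with proximal markers, -0.76 for GATA4, -0.30 for HNF4A and 0.36 for ELF3 with smooth muscle, and 0.17 for GATA4 and 0.48 for CDX2 with epithelial markers. With 1 library left out, values for weaning in control litters were -0.013 to 0.19 for CDX2, -1.93 to -0.063 for GATA4, -1.52 to -0.34 for CREB3L3, 0.41 to 0.88 for GATA6 and 0.074 to 0.38 for HNF4A. In resveratrol litters they were -0.85 to 1.41 for GATA4, -0.43 to 0.0052 for GATA6, -0.20 to 0.17 for CDX2, -0.081 to 0.15 for HNF4A, 0.18 to 0.89 for CREB3L3 and 0.12 to 0.42 for ELF3. Over both diets they were -0.94 to 0.095 for GATA4, -0.028 to 0.14 for CDX2, 0.065 to 0.36 for GATA6 and -0.45 to 0.098 for CREB3L3. For resveratrol in sucking piglets they were -0.67 to 1.31 for GATA4, -0.79 to 0.39 for CREB3L3 and 0.58 to 1.05 for GATA6. In weaned piglets they were 0.87 to 2.67 for GATA4, -0.26 to 0.10 for GATA6, -0.24 to 0.13 for CDX2, -0.047 to 0.056 for HNF4A, -0.16 to 0.16 for ELF3 and 0.91 to 1.63 for CREB3L3. For the difference they were 0.17 to 2.43 for GATA4, -0.38 to -0.065 for HNF4A (without sucking control replicates 1 and 2), -0.45 to -0.12 for ELF3 (without weaned control replicate 2 and weaned resveratrol replicate 3), -0.31 to 0.058 for CDX2, 0.80 to 1.98 for CREB3L3 and -1.09 to -0.62 for GATA6. The r with position was -0.14 to 0.27 for CDX2, -0.087 to 0.088 for HNF4A, 0.14 to 0.62 for GATA6 and 0.19 to 0.52 for ELF3. Without the 2 libraries farthest from the median score it was 0.17 for ELF3.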
